A study of Mus musculus with 4 samples.

Results

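The CXC chemokine ligand genes described here are Cxcl1, Cxcl2, Cxcl3, Cxcl9, Cxcl10, Cxcl12 and Cxcl16. They were listed as CXC ligands of myeloid cells with earlier results of these data known, although Cxcl12 among them is mainly stromal. Every probe set whose platform annotation names 1 of these symbols alone was taken, which gave 13 probe sets for 7 genes, of 45037 probe sets and 18193 named genes on the array. RNA of CD11b+ spleen cells from mice was measured on 4 Affymetrix MOE430 2.0 arrays. The control group (environment label LowThreat) had 2 pools and the social threat group (environment label HighThreat) had 2 pools, each pool holding the RNA of 5 mice, and the social threat mice had met the threat repeatedly. Strain, sex, age and genotype are not given in the sources used here, and no drug or transgene is named. Because mice were pooled before the array, the p-values below rest on the spread between pools and not between mice. That spread was estimated in part from other probe sets.

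Chemokines are small secreted proteins that guide leukocytes by binding receptors on their surface, and CXC ligands share a pair of cysteines set apart by another residue. Cxcl1, Cxcl2 and Cxcl3 carry the glutamate-leucine-arginine motif in front of those cysteines, bind Cxcr2 and draw neutrophils, and macrophages and monocytes make them after toll-like receptor or interleukin-1 signals through NF-kappaB. Cxcl9 and Cxcl10 lack that motif, are induced by interferons, and attract activated T cells and NK cells through Cxcr3. Cxcl12 is a mainly stromal ligand of Cxcr4 that holds myeloid cells in bone marrow, and Cxcl16 is a membrane-bound ligand of Cxcr6 made by macrophages and dendritic cells.

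The bases before the start sites are shown for the chromosome 5 ligands that fell, because the neutrophil-attracting ligands share a run of bases that was not found before Cxcl9 and Cxcl10. The sequences are from RefSeq on GRCm38.p6, and the promoter table used here matched 6 of the 7 genes. Capitals mark the longest run common to Cxcl1, Cxcl2 and Cxcl3, of 11 bases, or a match to GAAANNGAA, a word of interferon-stimulated response elements. For Cxcl1, Cxcl2 and Cxcl3 the 100 bases before the start are given, and for Cxcl9 and Cxcl10 the 250 bases before it.
Cxcl1, chr5:90891145-90891244, plus strand: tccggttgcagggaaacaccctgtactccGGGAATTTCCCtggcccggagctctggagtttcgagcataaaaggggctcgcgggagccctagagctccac
Cxcl2, chr5:90903799-90903898, plus strand: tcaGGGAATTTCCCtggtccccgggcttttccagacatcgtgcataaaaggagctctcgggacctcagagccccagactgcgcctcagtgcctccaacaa
Cxcl3, chr5:90786001-90786100, plus strand: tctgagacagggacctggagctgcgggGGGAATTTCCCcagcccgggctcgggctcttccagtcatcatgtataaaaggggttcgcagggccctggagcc
Cxcl9, chr5:92328080-92328329, minus strand: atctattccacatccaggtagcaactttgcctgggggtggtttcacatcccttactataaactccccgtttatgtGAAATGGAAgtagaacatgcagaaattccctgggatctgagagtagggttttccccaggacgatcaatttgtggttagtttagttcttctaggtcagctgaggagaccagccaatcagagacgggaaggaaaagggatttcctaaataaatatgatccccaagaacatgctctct
Cxcl10, chr5:92348890-92349139, minus strand: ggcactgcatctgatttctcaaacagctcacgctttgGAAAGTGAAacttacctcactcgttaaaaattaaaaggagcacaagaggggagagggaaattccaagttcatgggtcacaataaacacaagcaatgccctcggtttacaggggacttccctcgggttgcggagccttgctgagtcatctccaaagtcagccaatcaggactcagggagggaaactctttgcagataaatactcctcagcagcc

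The shared run, GGGAATTTCCC, has the form of an NF-kappaB site and lay 71 to 61 bases before the start of Cxcl1, 97 to 87 before that of Cxcl2 and 73 to 63 before that of Cxcl3. Searched on both strands, it stood in the 250 bases before the start of 11 of 27025 promoters (0.0407%), these 3 among them. The looser word GGGNNNTTC, which the shared run contains, was found for 5 of the 6 members, Cxcl9 and Cxcl10 among them, and in 11.8% of promoters. It thus did not separate the 2 kinds of ligand. GAAANNGAA was found for Cxcl9, 175 to 167 bases before its start, for Cxcl10, 213 to 205 bases before its start, and in 7.16% of promoters. The shared run was defined as common to Cxcl1, Cxcl2 and Cxcl3, so its presence there was fixed in advance. A word this rare is also likely to be absent before any other gene. These words were chosen after the sequences were seen, and a match is not a bound site.

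Values are log2 expression made with RMA, a method that brings arrays to a common distribution and gives no detection calls. They ran from 2.26 to 14.25, with array medians between 4.41 and 4.43, so a level near those medians cannot be separated from background. Differences below are social threat minus control on the log2 scale with their SE, from limma fitted over all probe sets, and "rose" and "fell" are used where the Benjamini-Hochberg adjusted p was under 0.05. Itgam, which encodes CD11b, stood at 10.47 and 11.01 in the control pools and at 11.64 and 11.59 in the social threat pools. It rose by 0.88 (SE 0.13, adjusted p = 0.0015), with the control pools 0.54 apart.

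Of the 7 ligand genes, each read by the brightest of its probe sets over the 4 arrays, 6 fell and 0 rose after social threat. Among all genes read in the same way 11.7% fell and 9.40% rose, and these shares stand beside the gene counts of the lists below too. They take in dim genes near background, while all 7 ligands were read above the array medians. Shares among genes of like level were not computed. Only Cxcl12 was not called in that fit. The median log2 difference of the 7 genes was -0.57, against -0.02 over all genes. By probe set, 9 of 13 fell and 0 rose, where 8.67% of all probe sets fell and 7.09% rose (15.8% called in either direction), and in 10 of 13 both social threat pools lay below both control pools, where 28.6% of all probe sets did. In bulk RNA, fewer cells of a type and less RNA per cell cannot be told apart.

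**Figure D1:**
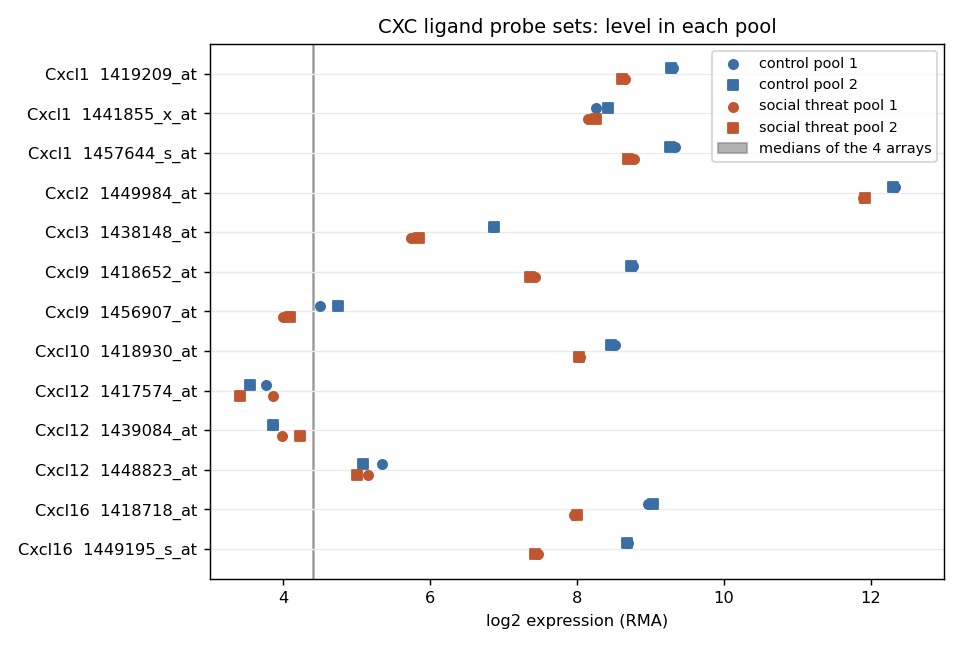
Log2 expression (RMA) of the 13 CXC ligand probe sets in each of the 4 pools, with blue marks for control, orange marks for social threat, and a grey line at the array medians (4.41 to 4.43). The pools of a group lie close together for Cxcl2, Cxcl3, Cxcl10, Cxcl16 and the brighter Cxcl9 probe set, and the Cxcl12 probe sets lie between 3.41 and 5.35.

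Cxcl2, also called MIP-2, is a neutrophil attractant released by activated macrophages, monocytes and neutrophils. It stood at 12.33 and 12.30 in the control pools and at 11.89 and 11.92 in the social threat pools. Both social threat pools lay below both control pools, by at least 0.38, while pools of a group differed by 0.03 or less. Cxcl2 fell by 0.41 (SE 0.03, adjusted p = 1.6e-05), a control level 1.33 times that under social threat.

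Cxcl1, known as KC, is the ligand most often used as a mouse counterpart of human interleukin-8, and 3 probe sets read it. The brightest, of the _s_at kind, gave 9.33 and 9.27 in control pools against 8.78 and 8.69 in social threat pools, and the next gave 9.31 and 9.28 against 8.65 and 8.62. Both showed the groups apart, and Cxcl1 fell by 0.57 (SE 0.07, adjusted p = 0.000316) on the first and by 0.66 (SE 0.06, adjusted p = 8.26e-05) on the second. The third, of the _x_at kind, gave 8.26 and 8.43 against 8.15 and 8.25, groups only 0.008 apart, and was not called (log2 difference -0.14, SE 0.08, adjusted p = 0.343). On this platform the suffix _x_at marks a probe set whose probes may also match other transcripts, and _s_at one whose probes match several related transcripts. As the mean of its 3 probe sets Cxcl1 fell by 0.46.

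Cxcl3 had the largest fall of the neutrophil-attracting ligands. Its 1 probe set gave 6.86 and 6.87 in the control pools and 5.75 and 5.84 in the social threat pools. The groups were 1.01 apart and the pools of a group at most 0.098. Cxcl3 fell by 1.07 (SE 0.10, adjusted p = 9.95e-05), a 2.10-fold lower level, and 167 of 45037 probe sets had a more negative difference.

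Cxcl9, known as MIG, is induced mainly by interferon-gamma in macrophages and dendritic cells. It stood at 8.77 and 8.74 in the control pools and at 7.42 and 7.36 in the social threat pools, groups 1.32 apart. It fell by 1.36 (SE 0.07, adjusted p = 2.93e-06), or 2.57-fold, and 28 of 45037 probe sets had a more negative difference. The dim second probe set of Cxcl9 gave 4.51 and 4.74 against 4.00 and 4.09, levels close to the array medians. There Cxcl9 fell by 0.58 (SE 0.13, adjusted p = 0.0145), and background can limit the size of that fall.

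Cxcl10, known as IP-10, responds to type I interferons and NF-kappaB as well as to interferon-gamma. Its pools gave 8.52 and 8.47 in controls and 8.04 and 8.03 under social threat, so that the groups were 0.43 apart. Cxcl10 fell by 0.46 (SE 0.07, adjusted p = 0.00188), a control level 1.38 times that under social threat. Without social threat pool 2 the difference was -0.46 with an adjusted p of 0.0503, the highest over its alternatives, which went down to 0.000432.

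Cxcl16 is made as a membrane protein that also binds oxidised lipoprotein, and 2 probe sets read it. The brighter gave 8.96 and 9.04 in the control pools and 7.96 and 8.01 in the social threat pools, and the other gave 8.70 and 8.69 against 7.46 and 7.43. Neither showed overlap between groups. Cxcl16 fell by 1.02 (SE 0.07, adjusted p = 1.2e-05) and by 1.25 (SE 0.07, adjusted p = 4.55e-06).

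Cxcl12, the stromal ligand also called SDF-1, was dim on each of its 3 probe sets. The brightest gave 5.35 and 5.09 in the control pools and 5.16 and 5.00 in the social threat pools, with overlap between the groups. Its log2 difference of -0.14 was not called (SE 0.14, adjusted p = 0.609), with a 95% interval from -0.44 to 0.17. The other probe sets lay between 3.41 and 4.23, below the array medians, with log2 differences of -0.03 (adjusted p = 0.95) and 0.24 (adjusted p = 0.282). As the mean of the 3 the difference was 0.025, so no direction is given for Cxcl12. Of 8 stroma and endothelium markers, 3 (Cdh5, Col1a1 and Col3a1) stood at or below the array medians too, 2 fell and 1 rose. The 1 that rose was the CXC ligand Cxcl13. Without social threat pool 1, Cxcl13 (log2 difference 0.45) and Pecam1 (-0.53), among those that fell, lost their calls. Cxcl13 also lost its call without control pool 2, social threat pool 2 or the variance trend.

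**Figure D2:**
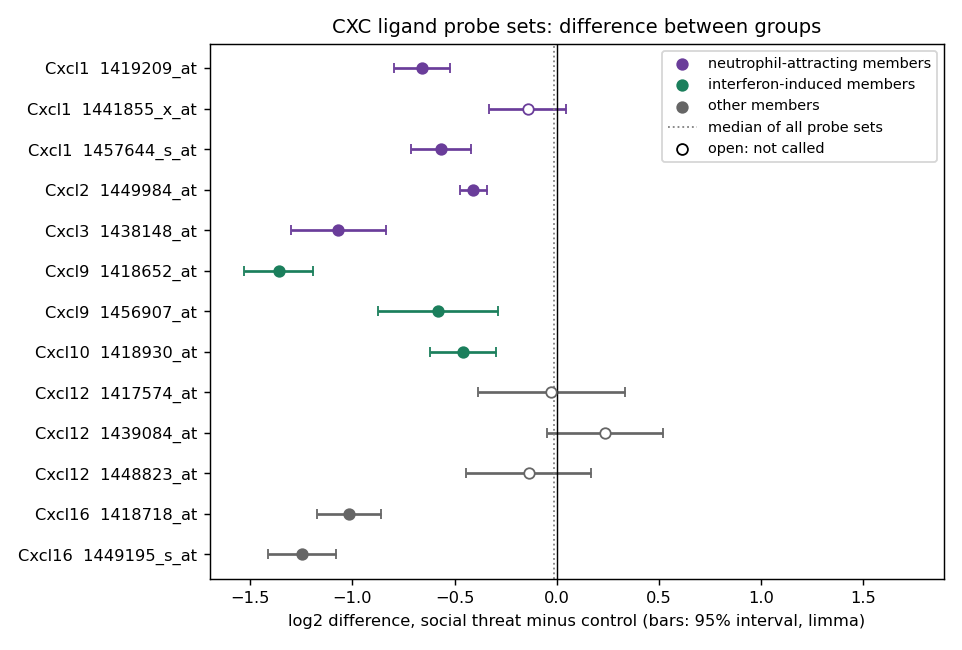
Log2 difference between social threat and control for each CXC ligand probe set, with 95% intervals from limma, filled marks for probe sets that fell and open marks for those not called. Differences of called probe sets run from -0.41 for Cxcl2 to -1.36 for Cxcl9, and all intervals of Cxcl12 include 0.

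The neutrophil-attracting ligands were set against the interferon-induced ligands by taking each gene's change from its control mean in every pool. Averaged over Cxcl1, Cxcl2 and Cxcl3 the change was -0.69 and -0.68 in the social threat pools. Averaged over Cxcl9 and Cxcl10 it was -0.89 and -0.93. The neutrophil-attracting mean thus stood 0.21 and 0.25 above the interferon-induced mean, against differences of 0.0061 either side of 0 in the control pools. This gap depends on how a gene with several probe sets is read: it averages 0.23 with the brightest and 0.071 with the mean of all probe sets. No test is given for it, since the members were chosen with earlier results known.

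The changes of the 2 kinds of ligand interleaved. On the brightest probe sets Cxcl9 changed most, followed by Cxcl3, Cxcl16, Cxcl1, Cxcl10 and Cxcl2 among the genes that fell. With the mean of all probe sets the order was Cxcl16 (-1.13), Cxcl3 (-1.07), Cxcl9 (-0.97), Cxcl10 (-0.46), Cxcl1 (-0.46) and Cxcl2 (-0.41). Cxcl3 and Cxcl16 differed in their change by 0.05, with pools of the 2 groups overlapping. The 95% intervals of Cxcl1 (-0.71 to -0.42), Cxcl2 (-0.47 to -0.34) and Cxcl10 (-0.62 to -0.30) overlapped one another, as did those of Cxcl9 (-1.53 to -1.19) and Cxcl3 (-1.30 to -0.84). By pool these pairs did not overlap, as held for 20 of the 21 pairs of members, and none was tested. The share among pairs of other genes was not computed, so this count says nothing particular to the members. The control values lie evenly about 0 because each change is taken from the control mean. The change of Cxcl1 minus that of Cxcl2 was -0.10 and -0.22 in the social threat pools, against 0.017 either side of 0 in the control pools. The change of Cxcl1 minus that of Cxcl10 was -0.06 and -0.15, against 0.0055 either side of 0, and that of Cxcl2 minus that of Cxcl10 was 0.04 and 0.06, against 0.0115 either side of 0. The change of Cxcl3 minus that of Cxcl9 was 0.21 and 0.37, against 0.02 either side of 0. Within the interferon-induced pair, Cxcl9 changed by 0.87 and 0.93 more than Cxcl10 in the 2 social threat pools. Within the neutrophil-attracting set, Cxcl3 changed by 0.70 and 0.62 more than Cxcl2. The spread inside each kind was therefore larger than the gap between the kinds.

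**Figure D3:**
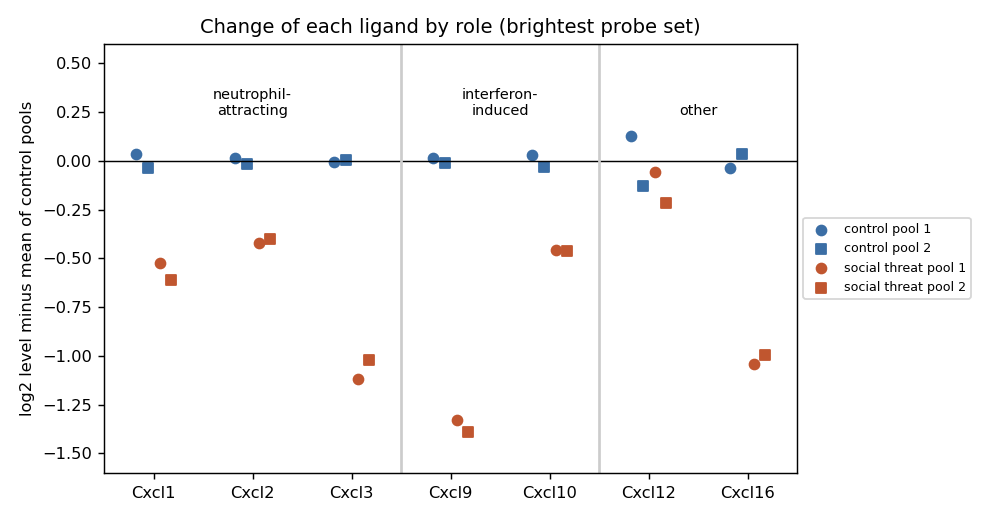
Change of each CXC ligand from the mean of its control pools, on the log2 scale, by role and pool. The social threat pools lie between -0.40 and -1.12 for the neutrophil-attracting ligands and between -0.46 and -1.39 for the interferon-induced ligands.

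The other CXC ligands were not called lower. Of 8 measured, 3 rose, 0 fell and 5 were not called, with a median log2 difference of 0.12. The 3 were Ppbp, the platelet ligand of Cxcr2, by 1.00 (SE 0.08), Pf4, platelet factor 4, by 0.89 (SE 0.08), and Cxcl13, the B cell attractant of follicles, by 0.57 (SE 0.15, adjusted p = 0.0336). Cxcl13 was not called when control pool 2 (adjusted p = 0.0991), social threat pool 1 (0.288) or social threat pool 2 (0.097) was left out, nor without the variance trend (0.0754). Its highest level in any pool was 5.96. Cxcl11, the third interferon-induced ligand of Cxcr3, stood at 4.58 and 4.80 in controls and 4.56 and 4.40 under social threat, near the array medians, and was not called. Cxcl5, a further Cxcr2 ligand, lay between 2.82 and 2.89 in all 4 pools, below the array medians. Cxcl14, Cxcl15 and Cxcl17, the others not called, stood near or below those medians too. Background can thus limit a fall for all 5 ligands that were not called. Among the 6 platelet markers, which include Ppbp and Pf4, 5 rose, and 3 rose when either social threat pool was left out, as Itga2b and Gp9 lost their calls. The sum of the log2 levels of the 6 was 35.6 to 36.3 in controls and 40.2 to 40.3 under social threat. Summed levels below are such sums of log2 values too, and not totals of RNA. The part of platelets in the rise of Ppbp and Pf4 was not tested.

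Some genes next to the ligands on their chromosomes were called, where 11.7% of all genes fell and 9.40% rose. In the RefSeq gene order of chromosome 5, Pf4, Cxcl3, Cxcl15, Cxcl1, Cxcl2 and Mthfd2l follow each other. Of the 3 that are no members Pf4 rose, while Cxcl15 and Mthfd2l, near or below the array medians, were not called. Farther along, Sdad1, Cxcl9, Art3, Cxcl10 and Nup54 follow each other. Sdad1 fell by 0.48 (SE 0.09) and Nup54 by 0.24 (SE 0.07, adjusted p = 0.0448), and Art3, below the array medians, was not called. Next to Cxcl16 on chromosome 11, Zmynd15 fell by 0.87 (SE 0.12) and Med11 was not called, and both neighbours of Cxcl12 on chromosome 6 were not called.

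Of 7 measured CXC receptor genes 1 rose and 3 fell, where 9.40% of all genes rose and 11.7% fell. Cxcr2, the receptor of Cxcl1, Cxcl2 and Cxcl3 on neutrophils, stood at 9.40 and 9.64 in controls and at 10.02 and 9.91 under social threat. It rose by 0.45 (SE 0.08, adjusted p = 0.00408) while Cxcl1, Cxcl2 and Cxcl3 fell. Cxcr3, the receptor of Cxcl9 and Cxcl10, went from 7.20 and 7.11 to 6.46 and 6.55 and fell by 0.65 (SE 0.10, adjusted p = 0.00152). Cxcr5, the Cxcl13 receptor of B cells, fell by 1.12 (SE 0.08). Cxcr4, the Cxcl12 receptor, fell by 0.11 (SE 0.03, adjusted p = 0.0392) from a bright level of 12.33. Cxcr6, the Cxcl16 receptor, lay between 4.24 and 4.54 and was not called. Without social threat pool 1 Cxcr2 (adjusted p = 0.0796) and Cxcr4 (0.358) were not called, and Cxcr4 was also lost without control pool 2 (0.0834) or social threat pool 2 (0.121), and both without the variance trend (0.0562 and 0.469).

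Of 14 measured genes that induce or restrain the neutrophil-attracting ligands, 5 fell, 1 rose and 8 were not called, with a median of -0.12. Tnfaip3, an inhibitor of NF-kappaB signalling that is also its target, fell by 0.60 (SE 0.04). Tlr2, a receptor for bacterial lipoproteins, fell by 0.26 (SE 0.03), and Il17ra, the interleukin-17 receptor chain, rose by 0.24 (SE 0.04). Zfp36, tristetraprolin, which destabilises chemokine mRNA, fell by 0.18 (SE 0.03). Nfkbia, the NF-kappaB inhibitor, was not called on its brightest probe set (log2 difference -0.09, adjusted p = 0.0505), while 3 of its 5 probe sets fell, by 0.27 to 0.36. Without the variance trend 1 gene of the list was called in place of 6, and 2 and 3 were called without social threat pools 1 and 2. Tnfaip3 was called under every one of these settings. Tlr2 was lost without the trend (adjusted p = 0.0981). Il17ra was lost without social threat pool 1 (0.0508) or the trend (0.124). Zfp36 was lost without social threat pool 1 (0.0784), social threat pool 2 (0.0846) or the trend (0.249).

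Genes of the interferon-gamma axis fell for 6 of 12 measured and rose for 0, with a median of -0.23. Without the variance trend 4 fell, as Ifngr1 and Jak2 lost their calls. Ciita, the class II transactivator induced by interferon-gamma, fell by 1.25 (SE 0.11) and Il12b, the interleukin-12 subunit that drives interferon-gamma production, by 1.18 (SE 0.19). Il12b stood at 4.65 and 4.12 under social threat, near the array medians, where background can limit a fall. Irf8 fell by 0.78 (SE 0.06) and Irf1, a transcription factor that binds chemokine promoters after interferon, by 0.41 (SE 0.04). Ifng itself lay between 3.43 and 4.01, below the array medians, and was not called. Gbp2, a GTPase strongly induced by interferon-gamma, stood at 9.88 and 10.00 in controls and 10.04 and 10.10 under social threat, the other side of the control level from Cxcl9, with a log2 difference of 0.13 that was not called (SE 0.06, adjusted p = 0.198). Without control pool 2 it was 0.19 with an adjusted p of 0.0317.

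Type I interferon axis genes fell for 4 of 11 measured and rose for 0, with a median of -0.29. Mx1, an antiviral GTPase, fell by 0.79 (SE 0.08), Ifit3 by 0.53 (SE 0.07) and Irf7, the amplifying factor of the response, by 0.48 (SE 0.05). Ifnar1, a receptor chain, fell by 0.34 (SE 0.07, adjusted p = 0.00808) but was not called without social threat pool 1 (0.16), social threat pool 2 (0.0587) or the variance trend (0.0626). Restricted to probe sets of mean level 5 or more, 7 genes of this list were called in place of 4, and without the variance trend 3 were.

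Of 7 proteases that cut CXC ligands, 5 rose and 1 fell. Dpp4, which trims Cxcl9, Cxcl10 and Cxcl12 at their amino end, went from 9.23 and 9.16 to 7.91 and 7.76. It fell by 1.37 (SE 0.08), and all 4 of its probe sets fell. Adam10, a sheddase that releases Cxcl16 from the membrane, rose by 0.30 (SE 0.05, adjusted p = 0.00276), and Adam17 was not called. Adam10 was not called without social threat pool 1 (0.0832), social threat pool 2 (0.0539) or the variance trend (0.0678), and Adam17 was called lower without control pool 2 (0.00871). The granule proteases Ctsg and Elane rose by 4.81 (SE 0.10) and 4.31 (SE 0.10), Mmp8 by 1.34 (SE 0.03) and Mmp9 by 0.58 (SE 0.03). Ctsg, Elane and Mmp9 also stand in the neutrophil marker lists.

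**Figure D4:**
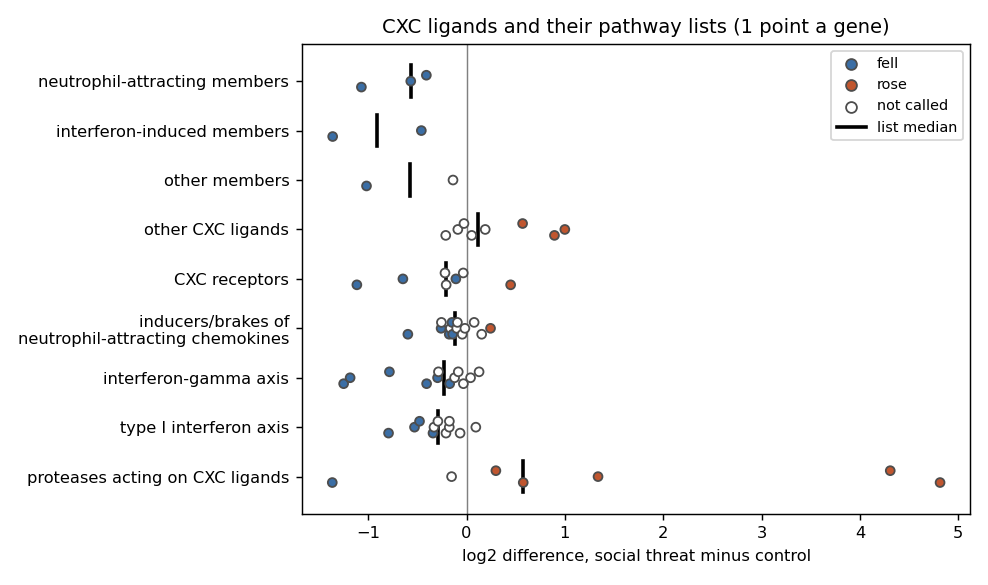
Log2 difference of each gene (brightest probe set) of the CXC ligand sets and their pathway lists, coloured by call, with a black bar at the median of each list. Medians run from -0.91 for the interferon-induced ligands to 0.58 for the proteases.

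Markers of several cell types moved too, in both directions. Immature neutrophil markers rose for 7 of 7, with summed levels of 63.8 to 64.5 in controls and 83.7 to 84.1 under social threat, and mature neutrophil markers rose for 4 of 5 and fell for 1. Red pulp macrophage markers fell for 8 of 9 (median -0.52, summed level 94.3 to 94.5 against 89.8 to 90.0) and patrolling monocyte markers for 5 of 6 (median -0.52, 58.9 to 59.8 against 55.80 to 55.83). Conventional dendritic cell markers fell for 7 of 7 (median -0.90, 58.7 to 58.8 against 50.9 to 51.3). Classical monocyte markers rose for 2 of 4 and fell for 0 (median 0.10, 46.7 to 46.9 against 47.4 to 47.5). Without the variance trend 1 mature neutrophil marker rose and 0 fell, and 1 classical monocyte marker rose. In that fit 8 red pulp macrophage, 4 patrolling monocyte and 6 conventional dendritic cell markers fell. Some calls in each of these lists that fell were also lost when a social threat pool was left out. Under quantile normalization the difference of S100a9, a mature neutrophil marker, was 0. No marker of these macrophage or patrolling monocyte lists was at or below the array medians, and in the dendritic cell list Xcr1 was.

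Lymphoid markers fell as well. They did so for 4 of 5 B cell genes (median -1.11, summed level 41.8 to 42.0 against 37.1 to 37.2), 6 of 6 T cell genes (median -0.92, 43.2 to 43.6 against 37.1 to 37.3) and 4 of 5 NK cell genes (median -0.71, 38.3 to 38.7 against 34.3 to 34.4). Plasmacytoid dendritic cell markers fell for 3 of 4, eosinophil and basophil markers fell for 2 of 6 and rose for 1 (1 and 0 when either social threat pool was left out), and erythroid markers rose for 5 of 5. Without the variance trend 5 T cell, 4 B cell and 4 NK cell genes fell. Some calls of T cell, NK cell and plasmacytoid dendritic cell genes were also lost when a social threat pool was left out. The part of any of the cell types above in the fall of the ligands was not tested.

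**Figure D5:**
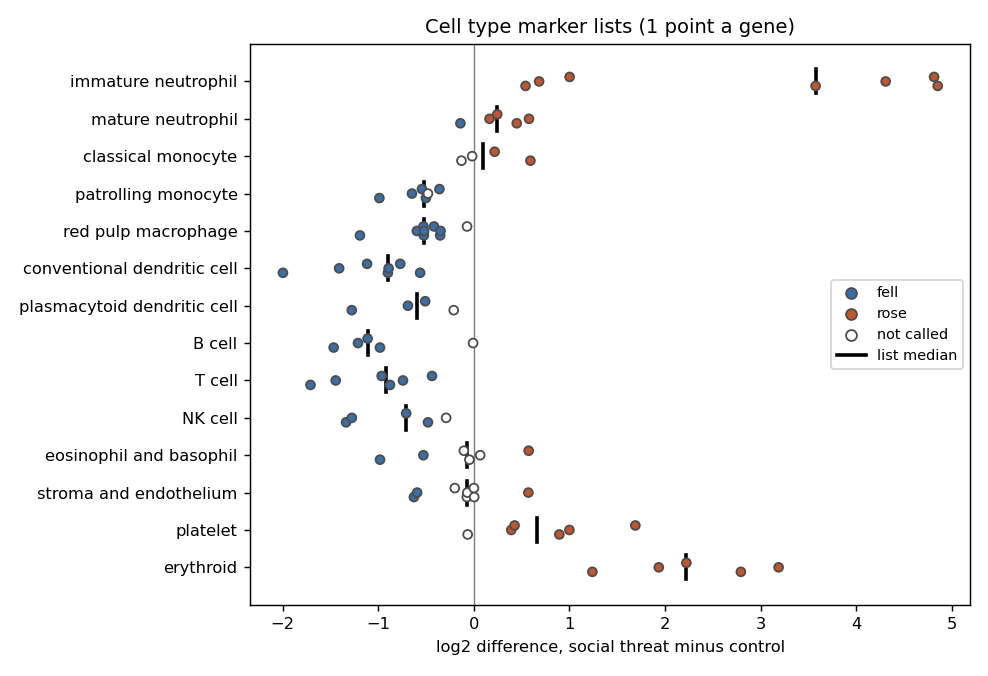
Log2 difference of each gene (brightest probe set) of 14 cell type marker lists, coloured by call, with a black bar at each list's median. Neutrophil, platelet and erythroid medians lie above 0, and macrophage, dendritic cell, patrolling monocyte and lymphoid medians below it.

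The genes most like 3 of the ligands were found by the Euclidean distance over the 4 pools after each gene's control mean was subtracted, among 8195 genes of mean level 6 or more. For Cxcl2 they were Fam50a (distance 0.010), Irf1 (0.011) and Plgrkt (0.017). For Cxcl9 they were H2-Oa (0.045), Dpp4 (0.068) and Fcmr (0.069), each with a log2 difference between -1.33 and -1.37. For Cxcl10 they were Saraf (0.011), Osgep (0.017) and St8sia4 (0.024). With 4 pools, the distance reflects mainly the size of the difference between groups.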

How the data were processed

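Values were log2 expression per probe set of CD11b+ spleen cell RNA on 4 single-colour arrays, deposited by the authors after RMA, a tool that the submitters' processing notes list without a version. RMA compresses differences of dim probe sets. The deposited log2 values were used unchanged, and the number of arrays limits the precision.

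Groups and pool numbers came from the labels. Gene symbols were taken from GEO's annotation of the platform, in which 34945 probe sets had 1 symbol, 932 had several and named no gene, and 9160 had none. Social threat and control were compared in R 4.3.3 with limma 3.58.1 (lmFit, eBayes with a mean-variance trend, 2 residual and 7.14 prior degrees of freedom), two-sided, with Benjamini-Hochberg adjustment over 45037 probe sets and a threshold of 0.05. The code was tested on simulated data. Where a gene had several probe sets, the brightest over the 4 arrays stood for it.

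The members, gene lists and tests were chosen with earlier results of these data known. All members were named, and up to 4 genes per pathway list, called genes first by size, with the members' receptors. Other genes named were chosen after their values were seen, among them Nfkbia, Cxcl11, Cxcl5, Gbp2, Ifng, Mmp9, Adam10 and Adam17. The alternatives were other variance priors, scalings, a level filter, the mean of a gene's probe sets, a block and leaving out each pool. 1 other promoter word that was searched is not reported here. Arrays of a group number only 2, and no label gives a batch.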

Additional observations from a re-analysis of the deposited data

How the results depend on the processing

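Cxcl1, Cxcl2, Cxcl3, Cxcl9 and Cxcl16 kept their direction and stayed called under all 11 alternatives run for each, with log2 differences from -0.61 to -0.46, -0.43 to -0.39, -1.12 to -1.02, -1.39 to -0.97 and -1.13 to -0.98. Cxcl10 did so in 10 of 11, with -0.49 to -0.43 when 1 pool was left out. Cxcl12 turned to 0.025 as the mean of its probe sets, uncalled either way. The gap between neutrophil-attracting and interferon-induced ligands, 0.23, became 0.071 with the mean of all probe sets, where the dim Cxcl9 probe set enters and Cxcl9 moves from -1.36 to -0.97. Over all probe sets 7099 were called, 4689 without the variance trend and 3171 to 8721 with 1 pool left out, 3171 being without social threat pool 2 and 3341 without social threat pool 1. Pathway genes called numbered 29, 17 without the trend and 19 to 32 with 1 pool left out. With pool number as a replicate block 8168 probe sets were called and every ligand kept its call. Same-numbered pools deviated with r = 0.052 over probe sets, and no label says that the numbers pair the pools. The other scalings moved the median difference of all probe sets by at most 0.0034. Signal near background limits Cxcl12, Cxcl11, Cxcl5, Cxcl14, Cxcl15, Cxcl17 and the dim Cxcl9 probe set.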
